A study of Homo sapiens with 12 samples.

Results

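Ribosome biogenesis and nucleolar factors were examined as a module of 50 genes in Z138 cells, an established human line derived from mantle cell lymphoma. Members were the entries of the deposited expression table whose symbol is on a list of 50 genes, with the entry of highest mean taken where a symbol repeats. All 50 were found among the 20318 entries of the table, and all 50 were among the 12721 entries tested. Cells had been exposed to 0.5 µM AU-15330 or to the solvent DMSO for 8 h or 24 h. AU-15330 is a proteolysis-targeting chimera, a molecule that brings a ubiquitin ligase to its targets, and its targets for degradation are PBRM1 and the motor subunits of BAF-type chromatin remodellers, SMARCA2 and SMARCA4. The groups were AU-15330 at 8 h (n = 3), DMSO at 8 h (n = 2), AU-15330 at 24 h (n = 3) and DMSO at 24 h (n = 3), all in wild-type cells of this single line. The labels list 3 DMSO samples at 8 h, but the descriptions of replicates 2 and 3 name the same column, which stands in the table in 2 identical copies. It was counted once and is called the unnumbered DMSO library, and the 11 libraries were analysed. Whether replicates were separate cultures is not stated in the labels. The p-values therefore rest on the spread between libraries alone, which may be technical. The labels use the time as the batch, so the 8 h and 24 h libraries cannot be told apart by time and by batch, and each effect was taken within its own time.

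A ribosome is built in the nucleolus. RNA polymerase I transcribes the long precursor of the ribosomal RNAs, guided by UBTF and RRN3. Small nucleolar ribonucleoproteins (snoRNPs) modify the precursor: box C/D particles methylate riboses and box H/ACA particles turn uridines into pseudouridines. The small subunit processome then folds and cleaves the part that becomes the 40S subunit, and other sets of factors, among them the PES1, BOP1 and WDR12 complex (PeBoW), build the 60S subunit. Many genes of this pathway are known direct targets of the transcription factor MYC, which binds the E-box with its partner MAX, and growing lymphoma cells rely on a high output of ribosomes.

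The RefSeq promoter windows given for 42 of the 50 members (250 bases before to 50 after the gene start, GRCh38.p14) were searched for the E-box CACGTG, a palindrome that reads the same on both strands. Of these 42 genes, 9 have more than 1 window. The E-box stood in at least 1 window of 19 of the 42 genes (45.2%), against 1182 of 9039 tested genes with a window (13.1%). In a wider list of 96 other ribosome biogenesis genes, described below, it stood in 23 of 83 genes with a window (27.7%). Counted by window, it stood in 20 of 51 (39.2%), against 1274 of 13243 (9.62%). In the windows of the 19 genes there were 21 matches, 13 at or after the annotated start and 8 before it. A match is a description of letters and not evidence of binding. Stretches of 30 bases around the match are printed for 7 members whose effects at the 2 times differed and for 3 whose effects did not differ past the threshold, so that both kinds can be seen, 5′ to 3′ on the gene's strand with the E-box in capitals.
DDX21, chr10:68956604-68956633, plus strand: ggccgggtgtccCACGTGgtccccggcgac
NOP2, chr12:6568242-6568271, minus strand: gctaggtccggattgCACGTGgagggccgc
NOP14, chr4:2963374-2963403, minus strand: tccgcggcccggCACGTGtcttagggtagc
GNL2, chr1:37595917-37595946, minus strand: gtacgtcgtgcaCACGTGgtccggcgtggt
RRP9, chr3:51941892-51941921, minus strand: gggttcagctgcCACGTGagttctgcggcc
NAT10, chr11:34105602-34105631, plus strand: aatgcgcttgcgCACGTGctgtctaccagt
WDR43, chr2:28894658-28894687, plus strand: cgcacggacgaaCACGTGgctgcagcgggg
FBL, chr19:39846356-39846385, minus strand: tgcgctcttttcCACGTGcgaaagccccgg
NOP10, chr15:34343130-34343159, minus strand: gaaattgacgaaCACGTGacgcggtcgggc
EBNA1BP2, chr1:43172241-43172270, minus strand: tggcgctggagcgattcggtggCACGTGga

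Most of the module rose at 8 h, and by 24 h a large share of it had fallen below DMSO. At 8 h, 30 of the 50 members were higher in AU-15330, 2 were lower and 18 missed the threshold. At 24 h 3 were higher, 21 were lower and 26 missed it. The test was limma on the deposited scale, with Benjamini-Hochberg adjustment over all 12721 tested entries and a threshold of 0.05. Each change is a difference in log2(normalised count + 60), printed together with its standard error (SE). A normalised count is a read count corrected for library depth, and bulk RNA does not separate less RNA per cell from fewer cells that carry it. Of all tested entries, 22.9% were higher and 21.4% lower at 8 h, and 24.7% were higher and 26.2% lower at 24 h. The share of members higher at 8 h (60%) and lower at 24 h (42%) stood above these backgrounds, and the share lower at 8 h (4%) and higher at 24 h (6%) stood below them. The members had been chosen with earlier results of these data known. The median log2 change of the members was 0.168 at 8 h, beside 0.0198 over all tested entries, and -0.0614 at 24 h, beside 0.00881.

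The sizes were modest. The 30 rises at 8 h ran from 0.0844 to 0.532 on the log2 scale with a median of 0.243, that is from 1.06-fold to 1.45-fold. The 21 falls at 24 h ran from -0.127 to -0.569 with a median of -0.207, or 0.916-fold to 0.674-fold. The median member had the same direction in each AU-15330 library of a time. Against the DMSO mean of the time, it stood at 0.145, 0.176 and 0.194 in the 3 libraries at 8 h, and at -0.0625, -0.0918 and -0.0769 in those at 24 h. The treated libraries of a time share that DMSO mean. At 24 h the upper quartile of the members was above 0 in each (0.0242, 0.025 and 0.0529). The DMSO libraries lay within 0.0164 of their own mean, which includes them, at 8 h and within 0.00473 at 24 h.

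**Figure D1:**
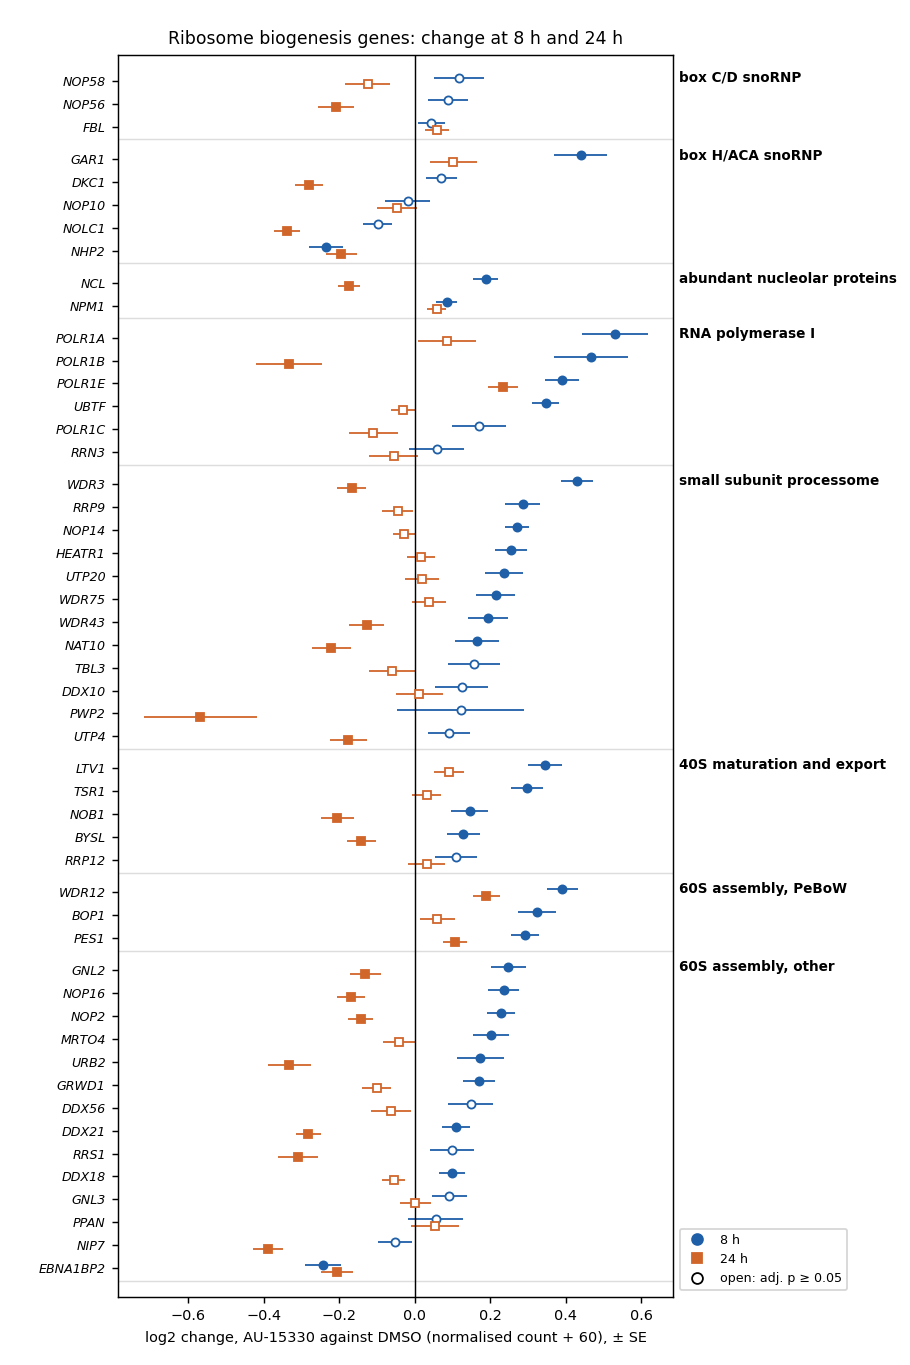
Log2 change of AU-15330 against DMSO on the normalised count plus 60 (x axis) for each of the 50 members (y axis), grouped by role, at 8 h (circles) and 24 h (squares), with bars of 1 SE and open symbols where the adjusted p was not under 0.05. At 8 h 30 filled circles lie right of 0 and 2 left of it, and at 24 h 3 filled squares lie right of 0 and 21 left of it.

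The count of falls at 24 h depends on how libraries are scaled to each other. Under quantile normalisation 9 members were higher and 13 lower at 24 h (59.1% of the calls lower, beside 87.5% in the deposited scaling), and 7 higher with 17 lower was the split on log2(CPM + 1). The share of members lower at 24 h was then 26% under quantile normalisation, near the 23.0% of all tested entries, and 34% beside 22.6% on log2(CPM + 1). The rises at 8 h were 25 to 30 under these and the other scalings tried. Among all tested entries the calls at 24 h moved the same way, from 3146 higher and 3330 lower to 3844 higher and 2921 lower under quantile normalisation.

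The effect of AU-15330 was lower at 24 h than at 8 h for 33 of the 50 members and higher for none, by limma's test of the difference between the effects (adjusted p under 0.05). Of all tested entries 11.0% had a lower and 7.54% a higher effect at 24 h. NHP2, EBNA1BP2 and FBL had estimated differences above 0, up to 0.0408 on the log2 scale, and none of these passed. The 33 differences ran from -0.80 to -0.155 with a median of -0.331. No scaling gave a member with a higher effect at 24 h, while the count with a lower effect was 19 under quantile normalisation (38%, beside 7.61% of all tested entries) and 23 on log2(CPM + 1) (46%, beside 6.96%).

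Set side by side, the 2 times sort the members into 6 patterns. In 12 the RNA rose at 8 h and fell at 24 h (NCL, POLR1B, WDR43, WDR3, NAT10, BYSL, NOB1, NOP2, NOP16, GNL2, DDX21 and URB2), and for each of them the difference between the times passed the test. In 15 the RNA rose at 8 h and did not pass at 24 h, and POLR1E, PES1 and WDR12 were higher at both times. NHP2 and EBNA1BP2 were lower at both times. In 7 the RNA did not pass at 8 h and fell at 24 h (NOP56, DKC1, NOLC1, UTP4, PWP2, NIP7 and RRS1), and 11 passed at neither time. Of the 12 that rose and then fell, NCL, POLR1B, WDR3, NOP2 and NOP16 kept both calls without each library in turn. NCL, POLR1B, NOP16 and DDX21 kept both under the other scalings. The fits with replicate blocks are not part of these checks. The rise of POLR1B at 8 h was not kept with the replicate number as a block. That of DDX21 was not kept with the unnumbered library taken as replicate 2 in the block. Across the 50 members the effects at the 2 times, which share no library, correlated with Pearson's r = 0.419 and Spearman's rho = 0.428, beside 0.751 and 0.661 over all tested entries. These are descriptions across genes, which are not independent replicates.

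**Figure D2:**
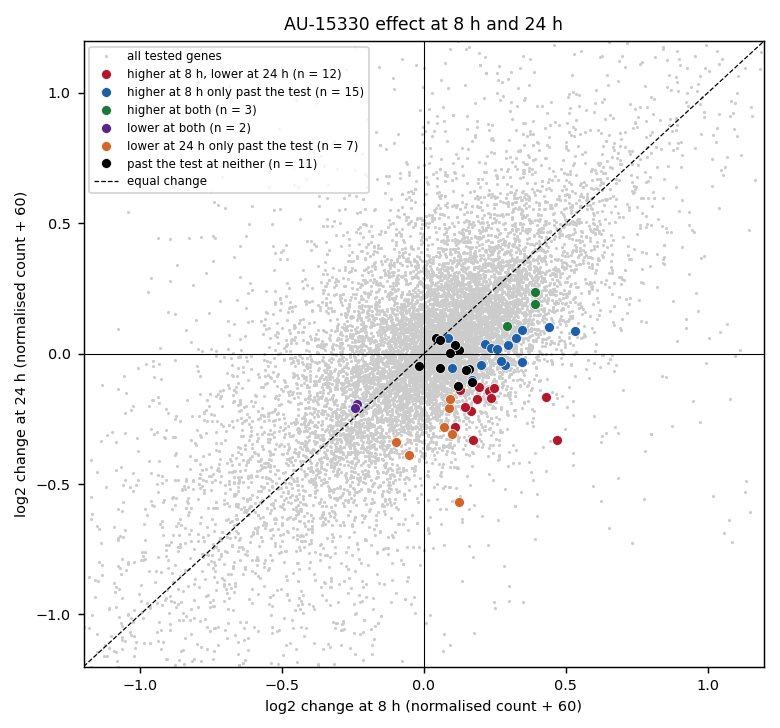
Log2 change at 8 h (x axis) against log2 change at 24 h (y axis), both on the normalised count plus 60, for the members over the other tested entries, with both axes limited to -1.2 to 1.2 and a dashed line of equal change. The 12 members that rose at 8 h and fell at 24 h lie in the lower right, and POLR1E, PES1 and WDR12 lie in the upper right.

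RNA polymerase I and its factors had the highest median of the 8 role classes at 8 h, 0.369, and 4 of 6 rose. Of 15 further polymerase I genes outside the module, 3 were higher (20%, beside the background of 22.9%) and 2 lower at 8 h, with a median of 0.0743. At 24 h POLR1E was still higher, POLR1B was lower and the other 4 did not pass. UBTF, which binds along the ribosomal DNA and keeps it open for the polymerase, was at 15970 and 16270 normalised counts in DMSO at 8 h, at 20080, 21250 and 20260 in AU-15330 at 8 h, at 14780, 15610 and 15130 in DMSO at 24 h, and at 14630, 14930 and 14960 in AU-15330 at 24 h. All 3 treated libraries at 8 h were above both DMSO libraries, and the groups overlapped at 24 h. Its log2 change was 0.35 (SE 0.0362, limma adjusted p = 1.84e-05) at 8 h and -0.03 (adjusted p = 0.455) at 24 h, a difference of -0.38 (SE 0.0486, adjusted p = 0.000523).

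POLR1B, the second-largest subunit, was at 8016 and 7258 normalised counts in DMSO and 9961, 11420 and 10370 in AU-15330 at 8 h, and at 7520, 8316 and 7755 in DMSO and 5623, 5903 and 7267 in AU-15330 at 24 h. The treated libraries were all above DMSO at 8 h and all below it at 24 h. It rose by 0.47 (SE 0.0989, limma adjusted p = 0.00208) and then stood at -0.33 (SE 0.0884, adjusted p = 0.00914), and its difference of -0.80 (SE 0.133, adjusted p = 0.00207) was the largest of the 50. POLR1E, a subunit of the polymerase's initiation module, behaved otherwise. It was at 3656 and 3520 normalised counts in DMSO and 4706, 4827 and 4631 in AU-15330 at 8 h, and at 3604, 3756 and 3610 in DMSO and 4166, 4423 and 4356 in AU-15330 at 24 h. The treated libraries were above DMSO at both times, by 0.39 (SE 0.0446, limma adjusted p = 3.59e-05) and 0.24 (SE 0.0399, adjusted p = 0.000516), and the difference did not pass (-0.16, SE 0.0599, adjusted p = 0.0927).

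POLR1A, which encodes the largest subunit, had the highest rise at 8 h of any member, 0.53 (limma adjusted p = 0.000439), and stood at 0.09 at 24 h (adjusted p = 0.388). Its difference between the times (-0.45, adjusted p = 0.0212) was lost without the unnumbered DMSO library (adjusted p = 0.0961) and under quantile normalisation (0.0528). POLR1C, shared with RNA polymerase III, had changes of 0.17 (adjusted p = 0.0672) and -0.11 (adjusted p = 0.186). For RRN3, the factor that recruits the polymerase to its promoter, the changes were 0.06 and -0.06, and its adjusted p-values by limma were 0.534 and 0.512. The entry of RRN3 used here is not on the primary assembly, and its value is uncertain because a second entry of the same symbol, with a mean of 663.52 normalised counts beside 5914.2, may share its reads.

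**Figure D3:**
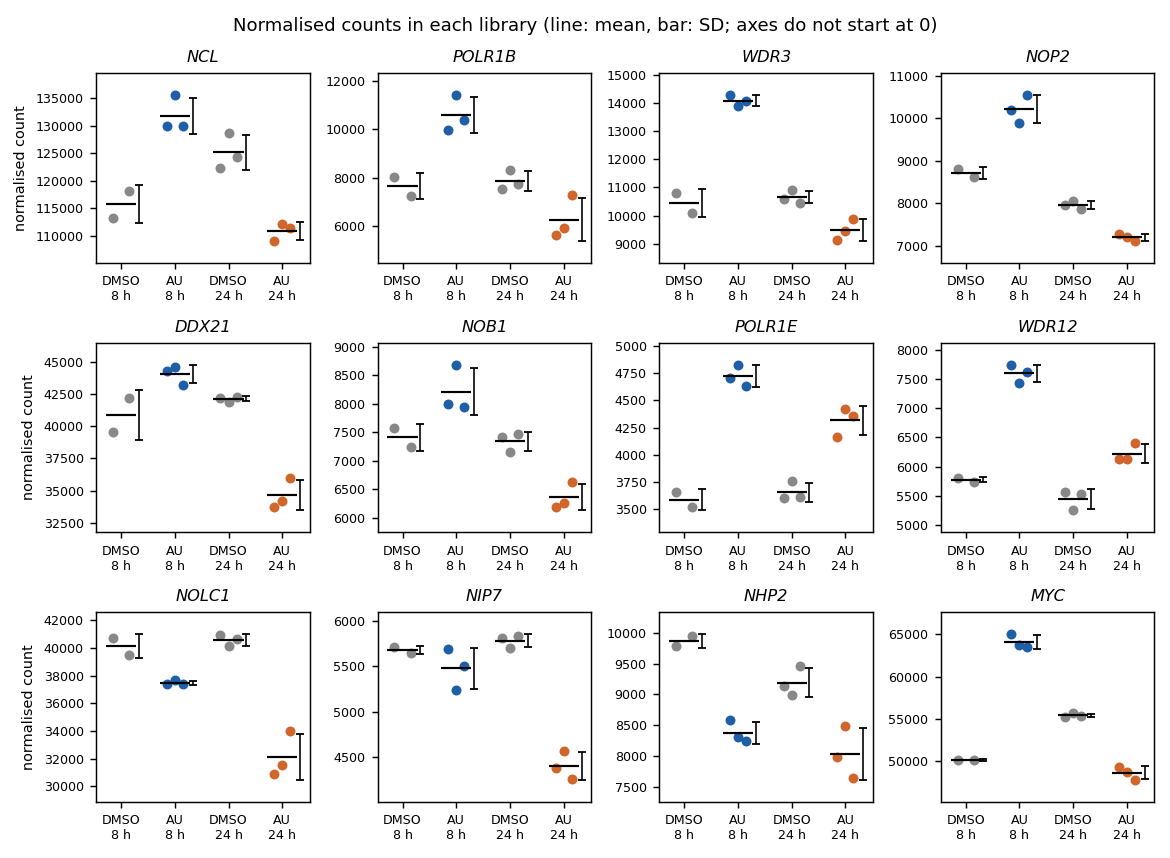
Normalised counts (y axis, not starting at 0) in each of the 11 libraries for 11 members and MYC, by group (x axis), with 1 point per library, a line at the group mean and a bar of 1 SD. For NCL, POLR1B, WDR3, NOP2, DDX21, NOB1 and MYC the treated points lie above DMSO at 8 h and below it at 24 h, while for POLR1E and WDR12 they lie above it at both times and for NHP2 below it at both.

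The 2 most abundant nucleolar proteins parted at 24 h. NCL encodes nucleolin, an RNA-binding protein that acts on ribosomal DNA transcription and early processing (chr2:231453531-231483641, GENCODE release 29). NCL was at 113300 and 118200 normalised counts in DMSO and 130000, 135600 and 129900 in AU-15330 at 8 h, and at 122400, 128700 and 124400 in DMSO and 109100, 112100 and 111400 in AU-15330 at 24 h. The treated libraries were above DMSO at 8 h and below it at 24 h, with no overlap at either time. NCL rose by 0.19 (SE 0.0336, limma adjusted p = 0.000763) and then fell by 0.17 (SE 0.0301, adjusted p = 0.00047), a difference of -0.36 (SE 0.0451, adjusted p = 0.00037). NPM1 encodes nucleophosmin, a chaperone of ribosomal proteins and late large subunits. It was at 151600 and 148000 normalised counts in DMSO and 157100, 157000 and 162300 in AU-15330 at 8 h, and at 154000, 155500 and 155300 in DMSO and 162700, 158500 and 163000 in AU-15330 at 24 h. The treated libraries were above DMSO at both times, by 0.08 (SE 0.0277, limma adjusted p = 0.0233) and 0.06 (SE 0.0248, adjusted p = 0.0585), so only the rise at 8 h passed. That rise was lost without the unnumbered DMSO library (adjusted p = 0.137) or AU-15330 replicate 3 at 8 h (0.0792) and in a fit of the 8 h groups alone (0.111). The difference of NPM1 between the times was -0.03 (SE 0.0372, adjusted p = 0.673), and its sign turned under quantile normalisation and both CPM scales.

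None of the 3 box C/D members passed at 8 h, and 1 fell at 24 h (33.3%, beside 26.2% of all tested entries). NOP56, a core scaffold of the particle, was at 22900 and 23900 normalised counts in DMSO and 25260, 24880 and 24510 in AU-15330 at 8 h, and at 21150, 21930 and 21800 in DMSO and 20270, 18540 and 17410 in AU-15330 at 24 h. Treated libraries did not overlap DMSO at either time, above it at 8 h and below it at 24 h. The change was 0.09 (SE 0.0531, limma adjusted p = 0.196) at 8 h and -0.21 (SE 0.0475, adjusted p = 0.00344) at 24 h, a difference of -0.30 (SE 0.0713, adjusted p = 0.0155). Quantile normalisation ended both the fall (adjusted p = 0.103) and the difference (0.143). The difference was also lost on log2(CPM + 1) (0.0594), on log2(CPM + 5) (0.0586) and without DMSO replicate 1 at 8 h (0.0634).

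NOP58, the partner of NOP56, was at 12230 and 12890 normalised counts in DMSO and 13720, 13920 and 13270 in AU-15330 at 8 h, and at 12560, 13660 and 12150 in DMSO and 12860, 11060 and 11310 in AU-15330 at 24 h. The groups were apart at 8 h and overlapped at 24 h, and neither change passed (0.12, limma adjusted p = 0.168, and -0.12, adjusted p = 0.104). FBL, the methyltransferase fibrillarin, had changes of 0.04 (adjusted p = 0.357) and 0.06 (adjusted p = 0.153). Its symbol has 2 entries with identical values, so reads may have been split between copies.

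The 5 members of the box H/ACA class, which holds the chaperone NOLC1 beside core proteins, ranged from -0.235 to 0.44 at 8 h. Of the 5, 3 fell at 24 h, NOLC1 among them (60%, beside 26.2% of all tested entries). GAR1 rose at 8 h and NHP2 fell, although both are core proteins of the same particle. GAR1 was at 3284 and 4015 normalised counts in DMSO and 4950, 4971 and 4926 in AU-15330 at 8 h, and at 3658, 3850 and 3737 in DMSO and 3957, 3957 and 4176 in AU-15330 at 24 h. All treated libraries were above DMSO at both times, by 0.44 (SE 0.0697, limma adjusted p = 0.000322) at 8 h and by 0.10 (SE 0.0624, adjusted p = 0.191) at 24 h, where the test was not passed. The difference of -0.34 (adjusted p = 0.0255) was lost without DMSO replicate 1 at 8 h (0.074), DMSO replicate 2 at 24 h (0.0549), AU-15330 replicate 1 at 24 h (0.0532) or AU-15330 replicate 2 at 24 h (0.0567). Quantile normalisation (0.0789) and the scales log2(CPM + 1) (0.0738) and log2(CPM + 5) (0.0711) ended it too.

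NHP2 is given in full because its direction at 8 h was against that of most members, and it was thus chosen after its values were seen. It was at 9787 and 9946 normalised counts in DMSO and 8581, 8298 and 8249 in AU-15330 at 8 h, and at 9132, 8989 and 9455 in DMSO and 7987, 8477 and 7634 in AU-15330 at 24 h. Treated libraries lay below DMSO at both times. The log2 change was -0.24 at 8 h (SE 0.046, limma adjusted p = 0.0015), and -0.19 at 24 h (SE 0.0411, adjusted p = 0.00218), the second lost under quantile normalisation (0.0562).

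DKC1, the pseudouridine synthase dyskerin (chrX:154762742-154777689), was at 21430 and 20450 normalised counts in DMSO and 22300, 22650 and 21050 in AU-15330 at 8 h, and at 20940, 22000 and 21160 in DMSO and 17910, 17090 and 17780 in AU-15330 at 24 h. The groups overlapped at 8 h and were apart at 24 h. Its change went from 0.07 (SE 0.0415, limma adjusted p = 0.193) to -0.28 (SE 0.0372, adjusted p = 8.49e-05), a difference of -0.35 (SE 0.0557, adjusted p = 0.00187). NOLC1, a chaperone that carries snoRNPs to the nucleolus, was at 40740 and 39520 normalised counts in DMSO and 37400, 37660 and 37400 in AU-15330 at 8 h, and at 40960, 40150 and 40630 in DMSO and 30860, 31520 and 34010 in AU-15330 at 24 h. Treated libraries lay below DMSO at both times, by -0.10 (SE 0.039, limma adjusted p = 0.0611) at 8 h and by -0.34 (SE 0.0349, adjusted p = 1.09e-05) at 24 h, and the difference passed (-0.24, SE 0.0524, adjusted p = 0.0102). NOP10, the smallest core protein of the particle, passed at neither time (-0.02, adjusted p = 0.833, and -0.05, adjusted p = 0.5).

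In the small subunit processome 8 of 12 members rose at 8 h (66.7%, beside 22.9% of all tested entries) and none fell (beside 21.4%). At 24 h 5 of 12 were lower (41.7%, beside 26.2% of all tested entries) and none higher. For 8 the effect was lower at 24 h (66.7%, beside 11.0%), with a class median difference of -0.283. WDR3, a WD-repeat scaffold of the processome (chr1:117929720-117966542), was at 10790 and 10100 normalised counts in DMSO and 14280, 13900 and 14070 in AU-15330 at 8 h, and at 10600, 10900 and 10460 in DMSO and 9122, 9456 and 9888 in AU-15330 at 24 h. It was above DMSO in every treated library at 8 h and below it in every one at 24 h. WDR3 rose by 0.43 (SE 0.043, limma adjusted p = 1.17e-05) and then stood at -0.17 (SE 0.0385, adjusted p = 0.00397), and its difference of -0.60 (SE 0.0577) had the smallest adjusted p of the module, 7.64e-05. The fall at 24 h did not pass under quantile normalisation (adjusted p = 0.0842).

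NOP14, which helps to assemble the particle, was at 11660 and 11390 normalised counts in DMSO and 13920, 13900 and 13940 in AU-15330 at 8 h, and at 10430, 10780 and 10570 in DMSO and 10460, 10480 and 10210 in AU-15330 at 24 h. The 3 treated libraries at 8 h stood above both DMSO libraries, and the groups overlapped at 24 h. NOP14 rose by 0.27 (SE 0.0317, limma adjusted p = 4.05e-05), stood at -0.03 at 24 h (adjusted p = 0.436), and differed between the times by -0.30 (SE 0.0425, adjusted p = 0.000923). In DMSO alone it was lower at 24 h than at 8 h by a log2 difference of -0.12 (SE 0.0317, adjusted p = 0.0355), a call that was lost in 12 of the alternatives (adjusted p = 0.0507 to 0.173).

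The other rises at 8 h in this class were 0.29 for RRP9, a protein of the U3 snoRNP, 0.26 for HEATR1, 0.24 for UTP20, 0.22 for WDR75, 0.19 for WDR43 and 0.17 for NAT10, the acetyltransferase of the small subunit RNA. At 24 h NAT10 (-0.22), UTP4 (-0.18), WDR43 (-0.13) and PWP2 (-0.57) were lower by limma's adjusted p. PWP2 had the fewest normalised counts of the members, between 133.5 and 273.7, and its SE at 24 h was 0.15. Left-out libraries ended some of these calls. NAT10 was lost at 8 h without either DMSO library at 8 h or AU-15330 replicate 1 or 2 at 8 h (adjusted p = 0.0539 to 0.192). The rise of WDR43 was lost without the unnumbered DMSO library (0.129), and its fall at 24 h without any of the 3 AU-15330 libraries at 8 h, any of the 3 DMSO libraries at 24 h or AU-15330 replicate 1 or 2 at 24 h (0.0509 to 0.15). UTP4 was lost at 24 h without DMSO replicate 3 (0.0571) or AU-15330 replicate 2 (0.0544) at 24 h. A second entry of UTP4, with a mean of 3086.3 normalised counts beside 5900, did not pass at 24 h (-0.08, limma adjusted p = 0.631). The difference between the times did not pass for that entry either (-0.18, adjusted p = 0.582). TBL3 (0.16 and -0.06) and DDX10 (0.12 and 0.01) passed at neither time.

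Factors that mature and export the 40S subunit rose at 8 h in 4 of 5 cases (80%, beside 22.9% of all tested entries). NOB1 is the nuclease that makes the last cut of the 18S RNA. It was at 7577 and 7247 normalised counts in DMSO and 8000, 8684 and 7951 in AU-15330 at 8 h, and at 7409, 7149 and 7466 in DMSO and 6198, 6268 and 6622 in AU-15330 at 24 h. Its treated libraries lay above DMSO at 8 h and below it at 24 h. The change went from 0.15 (SE 0.0492, limma adjusted p = 0.031) to -0.21 (SE 0.044, adjusted p = 0.00265), a difference of -0.35 (SE 0.066, adjusted p = 0.00476). The rise of NOB1 was lost without the unnumbered DMSO library (adjusted p = 0.181), without AU-15330 replicate 2 at 8 h (0.0935), under quantile normalisation (0.0701) and in a fit of the 8 h groups alone (0.0757).

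TSR1, a GTPase-like factor that holds the late 40S precursor inactive, was at 13190 and 12760 normalised counts in DMSO and 16220, 15890 and 15740 in AU-15330 at 8 h, and at 13180, 12130 and 12900 in DMSO and 13340, 13090 and 12610 in AU-15330 at 24 h. LTV1, which is bound to the same precursor and released late, was at 5015 and 5085 normalised counts in DMSO and 6501, 6606 and 6205 in AU-15330 at 8 h, and at 5225, 5199 and 4912 in DMSO and 5619, 5392 and 5342 in AU-15330 at 24 h. Both were above DMSO in every treated library at 8 h. At 24 h TSR1 overlapped DMSO, and LTV1 stayed above it without passing. TSR1 rose by 0.30 (SE 0.0418, limma adjusted p = 0.00016) and LTV1 by 0.35 (SE 0.0449, adjusted p = 9.01e-05). At 24 h they stood at 0.03 (adjusted p = 0.517) and 0.09 (adjusted p = 0.0822). The differences of -0.27 (adjusted p = 0.00804) and -0.25 (adjusted p = 0.0141) did not pass under quantile normalisation (0.0597 and 0.111), and that of LTV1 did not pass on log2(CPM + 1) (0.0573) or log2(CPM + 5) (0.0551). BYSL, the bystin of the same precursor, rose by 0.13 and was at -0.14 at 24 h, where quantile normalisation (0.0774), log2(CPM + 1) (0.0681) and log2(CPM + 5) (0.068) ended the call. Its rise was lost without the unnumbered DMSO library (0.166), AU-15330 replicate 2 (0.0652) or AU-15330 replicate 3 (0.0807) at 8 h, under quantile normalisation (0.0546) and in a fit of the 8 h groups alone (0.0875). RRP12 passed at neither time (0.11 and 0.03).

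The 3 members of PeBoW, which acts on the precursor of the 60S subunit, all rose at 8 h (class median 0.324), and none fell at 24 h. Of all tested entries 22.9% were higher at 8 h and 26.2% lower at 24 h. WDR12 was at 5807 and 5744 normalised counts in DMSO and 7735, 7439 and 7617 in AU-15330 at 8 h, and at 5563, 5254 and 5525 in DMSO and 6131, 6126 and 6409 in AU-15330 at 24 h. BOP1 was at 3845 and 3601 normalised counts in DMSO and 4582, 4818 and 4623 in AU-15330 at 8 h, and at 3946, 3927 and 3645 in DMSO and 3888, 4078 and 4047 in AU-15330 at 24 h. Treated libraries of WDR12 were above DMSO at both times, and those of BOP1 were above it at 8 h and overlapped it at 24 h. WDR12 rose by 0.39 (SE 0.0408, limma adjusted p = 1.67e-05) and was still higher by 0.19 at 24 h (SE 0.0365, adjusted p = 0.00128). BOP1 rose by 0.32 (SE 0.0513, limma adjusted p = 0.000361) and stood at 0.06 at 24 h (adjusted p = 0.304). PES1, the pescadillo scaffold, rose by 0.29 (limma adjusted p = 7.03e-05) and was higher by 0.11 at 24 h (adjusted p = 0.0187).

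For all 3 PeBoW members the effect was smaller at 24 h: the differences were -0.20 for WDR12 (limma adjusted p = 0.0227), -0.26 for BOP1 (0.0213) and -0.19 for PES1 (0.0233). That of BOP1 was lost without the unnumbered DMSO library (0.0885) or DMSO replicate 1 at 24 h (0.0505). That of WDR12 was lost without either DMSO library at 8 h, AU-15330 replicate 1 at 8 h, DMSO replicate 1 or 3 at 24 h or AU-15330 replicate 2 at 24 h (adjusted p = 0.0502 to 0.0689). That of PES1 was lost without the unnumbered DMSO library, AU-15330 replicate 1 or 3 at 8 h, DMSO replicate 1 or 3 at 24 h or AU-15330 replicate 1 at 24 h (0.0503 to 0.0898). None of the 3 passed under quantile normalisation, log2(CPM + 1) or log2(CPM + 5), where the adjusted p-values were 0.0821, 0.0564 and 0.0546 for BOP1, 0.161, 0.0968 and 0.0904 for WDR12, and 0.279, 0.0968 and 0.0934 for PES1. The higher level of PES1 at 24 h was lost without DMSO replicate 2 (0.0781) or AU-15330 replicate 2 (0.0645) at 24 h. BOP1 has 2 entries with identical values, so its reads may be split between copies.

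Among the 14 other 60S assembly factors 8 rose (57.1%, beside 22.9% of all tested entries) and 1 fell (7.14%, beside 21.4%) at 8 h. At 24 h 8 fell (57.1%, beside 26.2%) and none rose. For 10 of them the effect was lower at 24 h (71.4%, beside 11.0%), with a class median difference of -0.304. DDX21, an RNA helicase that couples polymerase I transcription with processing, was at 39530 and 42230 normalised counts in DMSO and 44320, 44620 and 43240 in AU-15330 at 8 h, and at 42160, 41910 and 42300 in DMSO and 33750, 34240 and 36000 in AU-15330 at 24 h. NOP2, the cytosine methyltransferase of the 28S RNA, was at 8799 and 8606 normalised counts in DMSO and 10190, 9892 and 10540 in AU-15330 at 8 h, and at 7953, 8040 and 7863 in DMSO and 7267, 7205 and 7112 in AU-15330 at 24 h. For both genes the treated libraries lay above DMSO at 8 h and below it at 24 h, and both carry an E-box among the sequences above.

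DDX21 changed by 0.11 (SE 0.0371, limma adjusted p = 0.0336) at 8 h and by -0.28 (SE 0.0332, adjusted p = 3.2e-05) at 24 h, a difference of -0.39 (SE 0.0498, adjusted p = 0.000513). Its rise at 8 h was lost without DMSO replicate 1 (adjusted p = 0.285), AU-15330 replicate 1 (0.0759) or AU-15330 replicate 2 (0.0782) at 8 h, with no filter (0.0504) and in a fit of the 8 h groups alone (0.085). NOP2 changed by 0.23 (SE 0.0366, limma adjusted p = 0.000392) and -0.14 (SE 0.0327, adjusted p = 0.00417), a difference of -0.37 (SE 0.049, adjusted p = 0.000635). The fall of NOP2 did not pass under quantile normalisation (0.0681). NIP7, which acts in 60S maturation, did not rise first: it was at 5709 and 5651 normalised counts in DMSO and 5690, 5242 and 5502 in AU-15330 at 8 h, and at 5808, 5701 and 5840 in DMSO and 4384, 4566 and 4261 in AU-15330 at 24 h. The groups overlapped at 8 h and were apart at 24 h, with changes of -0.05 (adjusted p = 0.371) and -0.39 (SE 0.0407, adjusted p = 1.29e-05) and a difference of -0.34 (SE 0.0611, adjusted p = 0.0039).

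EBNA1BP2, a nucleolar factor of 60S assembly, was the second member that fell at 8 h, and it is given in full for that, after its values were seen. It was at 9617 and 9793 normalised counts in DMSO and 8620, 7847 and 8118 in AU-15330 at 8 h, and at 9083, 9086 and 9287 in DMSO and 8332, 7771 and 7677 in AU-15330 at 24 h. Its libraries lay below DMSO at both times, with log2 changes of -0.24 (SE 0.0478, limma adjusted p = 0.00154) and -0.21 (SE 0.0427, adjusted p = 0.00184), and the difference of 0.04 did not pass (adjusted p = 0.727). Further rises at 8 h were 0.25 for GNL2, 0.24 for NOP16, 0.20 for MRTO4, 0.17 for URB2, 0.17 for GRWD1 and 0.10 for DDX18. Further falls at 24 h were -0.33 for URB2, -0.31 for RRS1, -0.17 for NOP16 and -0.13 for GNL2.

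Several of these smaller calls rested on single libraries or on the scaling. The rise of URB2 was lost without any of the 5 libraries at 8 h, DMSO replicate 1 at 24 h or AU-15330 replicate 2 at 24 h (limma adjusted p = 0.0522 to 0.189). The rise of DDX18 was lost without either DMSO library at 8 h, AU-15330 replicate 1 or 3 at 8 h or DMSO replicate 2 at 24 h (0.0516 to 0.151), on each scaling but centring of library medians, with no filter (0.057) and in a fit of the 8 h groups alone (0.0801). The fall of GNL2 was lost without DMSO replicate 1 (0.0626), DMSO replicate 3 (0.0635) or AU-15330 replicate 1 (0.0621) at 24 h, and by quantile normalisation (0.241) and the scales log2(CPM + 1) (0.148) and log2(CPM + 5) (0.147). Quantile normalisation also ended the rises of NAT10 (adjusted p = 0.0553) and URB2 (0.0604) and the falls of WDR43 (0.402) and UTP4 (0.0576), and the falls of the latter pair did not pass on either CPM scale. With no filter the rises of NAT10 (0.0502) and URB2 (0.0555) and the fall of WDR43 (0.0574) did not pass, and the fall of WDR43 was also lost with library medians centred (0.07). Of the differences between the times, those of GRWD1 (0.0737), WDR43 (0.0899), HEATR1 (0.115), MRTO4 (0.167), UTP20 (0.193), UTP4 (0.163) and DDX18 (0.811) did not pass under quantile normalisation. GNL3 (nucleostemin, 0.09 and 0.00159), DDX56 (0.15 and -0.06) and PPAN (0.06 and 0.05) passed at neither time.

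**Figure D4:**
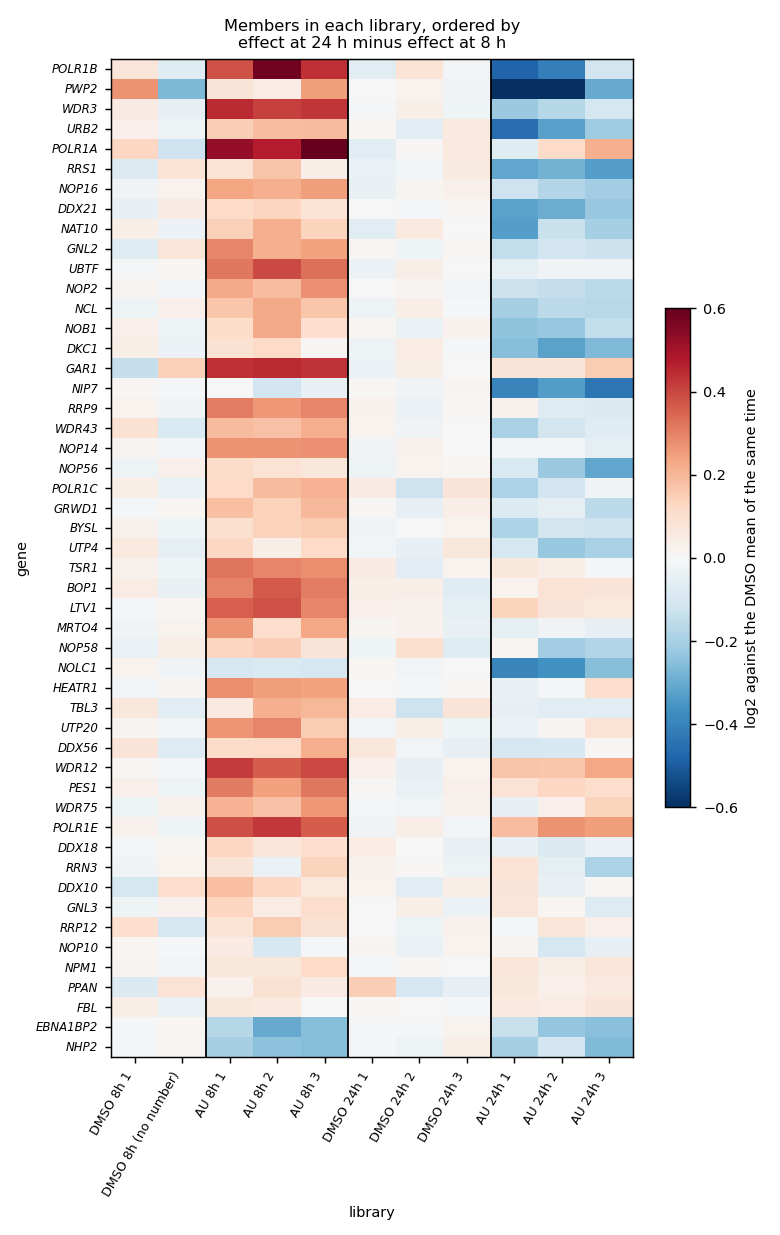
Log2 of the normalised count plus 60 in each library minus the DMSO mean of the same time (colour, clipped at -0.6 and 0.6) for the 50 members (rows, ordered by the effect at 24 h minus that at 8 h, lowest on top) in the 11 libraries (columns). The AU-15330 columns at 8 h are mostly on the higher side, with median members at 0.145 to 0.194, and those at 24 h are mixed, with medians at -0.0918 to -0.0625.

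DMSO libraries alone show how much of the module differed between the 2 times without the compound. At 24 h 1 member was higher than at 8 h (DDX18, 0.17, SE 0.0343, limma adjusted p = 0.0112) and 3 were lower (UTP20 -0.18, RRP9 -0.16 and NOP14 -0.12). Among all tested entries 6.56% were higher and 3.56% lower. The median member difference was -0.00569. None of the 3 lower calls held with no filter (adjusted p = 0.0691 for UTP20, 0.0713 for RRP9 and 0.0585 for NOP14), or without DMSO replicate 1 at 8 h (0.198, 0.205 and 0.173), the unnumbered DMSO library (0.129, 0.109 and 0.0807), DMSO replicate 1 (0.12, 0.0792 and 0.111), 2 (0.0662, 0.128 and 0.0536) or 3 (0.123, 0.0973 and 0.0926) at 24 h, AU-15330 replicate 1 at 8 h (0.0602, 0.0599 and 0.0507) or AU-15330 replicate 2 at 24 h (0.0692, 0.0653 and 0.0564). The mean of DDX18 at 8 h and 24 h was 20390 and 22920 normalised counts in DMSO, and 21850 and 22040 in AU-15330. Its difference of -0.155 between the effects thus includes the rise in DMSO. The call of DDX18 in DMSO was lost without DMSO replicate 1 at 8 h (0.074) and under quantile normalisation (0.0571). Time and batch cannot be told apart in this comparison.

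The RNA of MYC was above DMSO at 8 h and below it at 24 h. MYC RNA was at 50090 and 50180 normalised counts in DMSO and 65010, 63700 and 63540 in AU-15330 at 8 h, and at 55190, 55640 and 55370 in DMSO and 49340, 48760 and 47790 in AU-15330 at 24 h. Treated libraries were above DMSO at 8 h and below it at 24 h without overlap. MYC rose by 0.35 (SE 0.0264, limma adjusted p = 1.34e-06) and was then at -0.19 (SE 0.0236, adjusted p = 4.94e-05), a difference of -0.54 (SE 0.0355, adjusted p = 7.18e-06). In DMSO alone MYC was higher at 24 h than at 8 h by 0.14 (SE 0.0264, adjusted p = 0.00615). MAX, its obligate partner, stood at 0.09 at 8 h (adjusted p = 0.373) and fell at 24 h (-0.51, SE 0.0688, adjusted p = 0.00012). MXI1, which competes with MYC for MAX, was lower at both times (-0.40, adjusted p = 0.00491, and -0.26, adjusted p = 0.023), and MNT, another competitor, did not pass (0.24, adjusted p = 0.0535, and 0.17, adjusted p = 0.0793). The part of MYC and its partners in the members' values was not tested.

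The members with an E-box in at least 1 window and those without one are described side by side, with no test of the difference. Of the 19 with a match, 13 rose and 1 fell at 8 h, with a median of 0.194, and 1 rose and 9 fell at 24 h, with a median of -0.0458. Of the 23 without a match, 13 rose and 1 fell at 8 h (median 0.170), and 1 rose and 9 fell at 24 h (median -0.0631). The difference between the times passed in 14 of the 19 and 14 of the 23, with medians of -0.27 and -0.271. Beside these counts, 22.9% of all tested entries were higher at 8 h and 26.2% lower at 24 h, and 11.0% had a lower effect at 24 h. For 8 members (BOP1, DDX18, NOLC1, NOP58, POLR1E, RRP12, RRS1 and URB2) no window was given. Other motifs counted in the windows on both strands were the ETS motif CCGGAAG and the NF-Y motif CCAAT. The ETS motif was found for 45.2% of the members, 47% of the wider list and 24.6% of all tested genes with a window. For the NF-Y motif these shares were 45.2%, 32.5% and 43.9%.

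**Figure D5:**
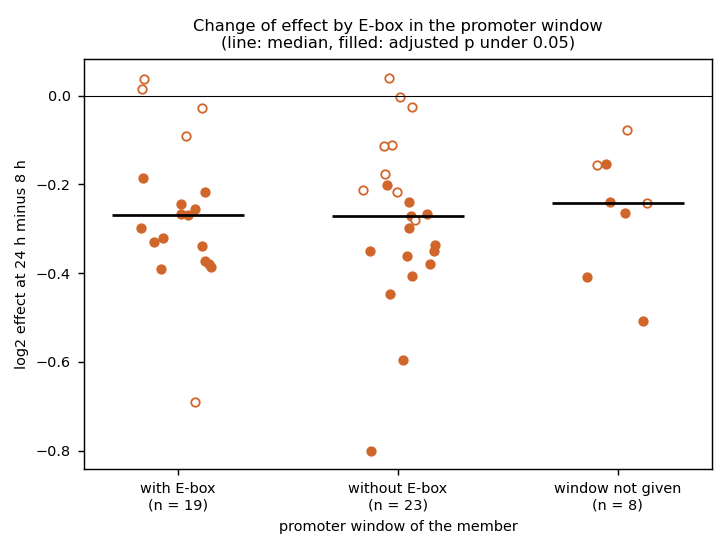
Log2 effect at 24 h minus that at 8 h, on the normalised count plus 60 (y axis), of members with an E-box in at least 1 promoter window (19), without one (23) and with no window given (8) (x axis). Each point is a member, filled where the adjusted p was under 0.05, and lines mark medians, which were -0.27 with an E-box, -0.271 without one and -0.241 where no window was given.

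The wider list of 96 other ribosome biogenesis genes, all tested, also had more rises than falls at 8 h. It comes from the same libraries and was chosen with earlier results of these data known, so it is not an independent check. At 8 h 44 were higher and 7 lower (median 0.158), and at 24 h 17 were higher and 25 lower (median -0.0341). The share higher at 8 h (45.8%) was above the background of 22.9%, while the share lower at 24 h (26%) was near the background of 26.2%. The effect was lower at 24 h for 43 (44.8%, beside 11.0% of all tested entries) and higher for 1 (1.04%, beside 7.54%). The median difference was -0.214. The largest rises at 8 h were in DIMT1, a methyltransferase of the 18S RNA (0.622, SE 0.0445, limma adjusted p = 9.43e-07), and UTP3, a processome factor (0.60, SE 0.0447, adjusted p = 2.19e-06). The largest falls at 8 h were in POLR2F, a subunit shared by the RNA polymerases (-0.332, adjusted p = 0.00157), and NVL, an ATPase of 60S assembly (-0.296, adjusted p = 0.000752). UTP3 was also the 1 gene of the list with a higher effect at 24 h: it was higher by 0.925 at 24 h (SE 0.04, adjusted p = 8.87e-09), a difference of 0.325 (adjusted p = 0.00245). The other large changes at 24 h were 0.337 for NOL9, a kinase of rRNA processing (adjusted p = 0.00127), -0.478 for the helicase DDX54 (adjusted p = 8.28e-06) and -0.362 for the polymerase subunit POLR1G (adjusted p = 3.4e-05).

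Estimated totals were 50763540 to 67573110 counts per library, and all members but PWP2 had at least 1892 normalised counts in every library. Of the markers of mantle cell lymphoma and B cells, CCND1 was at 146900 to 169200 normalised counts in every library, and SOX11, CD79A, MS4A1 and PAX5 were detected. MS4A1 (-0.8678 and -1.753) and PAX5 (-1.48 and -1.034) were lower at both times, CD79A was lower at 24 h (-1.244) and SOX11 was higher at 24 h (1.154). Among markers of other cell types, CD3D, LYZ and CD14 were at or below 28.9 normalised counts in every library and were not tested. CD3E, also not tested, averaged 49.9 under DMSO against 9.62 with the compound at 8 h, and 66.7 against 1.23 at 24 h, with every treated library below DMSO, and HBB was not matched. EPCAM was at 40.5 to 90.4 and was lower at 24 h (-0.391). COL1A1, at 74.2 to 1275, was lower in AU-15330 at 8 h (-1.59) and at 24 h (-2.83). The part of these markers in the members' values was not tested.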

How the data were processed

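RNA-seq libraries of 11 samples were analysed (AU-15330 and DMSO at 8 h and 24 h). Libraries were poly(A) or ribosome-depleted with 50 bp reads, per the labels, which do not tie kits to samples. Per the submitters' processing notes, the tools were kallisto 0.46.1, Trimmomatic 0.40, DESeq2 1.24.0 with R 4.3.2 and FastQC 0.11.9, and the build was GRCh38.p13. The deposited table holds log2 values made by the authors. Its name speaks of log CPM, but the lowest value is the same in all libraries, as a variance-stabilising transform would leave it, and that transform was inverted to obtain normalised counts. On it a doubling is 0.163 at 100, 0.461 at 1000 and 0.852 at 10000 normalised counts, so changes are given as log2(normalised count + 60), where 59.45 normalised counts equal 1 CPM. Of low values up to 20 counts, 53.7% to 56.0% were whole within 0.02, so no count model was used.

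Of 12 value columns 1 was a duplicate and was not used. An entry needed 1 CPM or more in 3 or more libraries (12721 of 20318 passed, 62.61%). The fit used limma 3.58.1 (R 4.3.3) with 1 mean per group, a trended prior variance and 7 residual degrees of freedom, on the deposited scale, with Benjamini-Hochberg adjustment and a threshold of 0.05. The procedure was tested on simulated data, with changes put into AU-15330 at 24 h and recovery counted for the comparison at 24 h alone. Recovery at 8 h, where DMSO has n = 2, and for the difference between the times was not covered. The members and lists were chosen with earlier results of these data known. Genes given in full are, in each class, the top 2 by p for the difference between times and the top 1 by p at 8 h and at 24 h; from the wider list, the 2 largest rises and 2 largest falls at each time. Some marker genes are not reported here. Replicate numbers were not treated as pairs. Alternatives were other scalings, filters and variance priors, a fit on the groups compared alone, a replicate block, each library left out and members with repeated symbols left out. Gene coordinates are from GENCODE release 29, promoter windows from RefSeq (GRCh38.p14). Figures used Matplotlib 3.10.9, and tables pandas 2.3.3 and NumPy 2.4.6 under Python 3.11.15.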

Additional observations from a re-analysis of the deposited data

Results flagged for a closer look

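The effect of AU-15330 differed between 24 h and 8 h in 33 of the 50 members by limma's test of the difference itself, adjusted over all tested entries at 0.05. Each value is the log2 effect at 24 h minus that at 8 h, and all 33 are below 0. Of the box C/D proteins it was -0.297 for NOP56. In the box H/ACA class, which holds the chaperone NOLC1, the differences were -0.35 for DKC1, -0.24 for NOLC1 and -0.338 for GAR1. Of the abundant nucleolar proteins it was -0.362 for NCL. In the RNA polymerase I class they were -0.379 for UBTF, -0.8 for POLR1B and -0.446 for POLR1A. Processome members had -0.597 for WDR3, -0.299 for NOP14, -0.331 for RRP9, -0.386 for NAT10, -0.322 for WDR43, -0.24 for HEATR1, -0.267 for UTP4 and -0.216 for UTP20. Factors of 40S maturation and export had -0.351 for NOB1, -0.266 for TSR1, -0.27 for BYSL and -0.254 for LTV1. PeBoW members had -0.264 for BOP1, -0.202 for WDR12 and -0.186 for PES1. The other 60S assembly factors had -0.39 for DDX21, -0.372 for NOP2, -0.406 for NOP16, -0.379 for GNL2, -0.507 for URB2, -0.336 for NIP7, -0.409 for RRS1, -0.271 for GRWD1, -0.244 for MRTO4 and -0.155 for DDX18. Without each library in turn 22 of the 33 stayed past the threshold, and BOP1, DDX18, GAR1, HEATR1, MRTO4, NOP56, PES1, POLR1A, UTP20, UTP4 and WDR12 did not. Under the other scalings and filters 18 of the 33 stayed past it in every one, and GRWD1, LTV1, TSR1 and WDR43 were lost in addition to these 11.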

How the results depend on the processing

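The data limit the results in 3 ways: DMSO at 8 h has n = 2, time and batch cannot be told apart, and the changes are small (median rise at 8 h 0.243 on the log2 scale). None of 89 called changes of single members reversed under the alternatives run, and 66 were kept without each library in turn (24 of 32 at 8 h, 20 of 24 at 24 h, 22 of 33 for the difference). Under the other scalings, filters, priors and fits, replicate blocks aside, 59 of the 89 were kept in every one (25 of 32, 16 of 24 and 18 of 33), and quantile normalisation alone ended 28. Members higher at 24 h (3) became 9 under quantile normalisation, 5 with library medians centred and 7 on log2(CPM + 1) and log2(CPM + 5). Under quantile normalisation members lower at 24 h (21) became 13 and those with a lower effect at 24 h (33) became 19. The cause was not tested. The median of all tested entries at 24 h was 0.0536 there, beside 0.00881.

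The median member change at 8 h (0.168) was 0.144 under quantile normalisation and 0.152 on log2(CPM + 5), and ran from 0.156 to 0.194 without each library in turn. At 24 h (-0.0614) it was -0.0188 under quantile normalisation, -0.0319 with medians centred, -0.00784 on log2(CPM + 1), -0.0076 on log2(CPM + 5) and -0.0818 without the 4 members of repeated symbols, and ran from -0.0783 to -0.0471 without each library in turn. Leaving out libraries gave 24 to 30 members higher and 2 to 3 lower at 8 h, 2 to 3 higher and 18 to 22 lower at 24 h, and 26 to 35 with a lower effect at 24 h. In DMSO, the 1 higher member became 0 under quantile normalisation and 2 at a filter of 5 CPM, and the 3 lower became 5 under quantile normalisation, 0 with no filter and 1 in a fit of the DMSO groups alone. Without each library in turn they were 0 to 2 and 0 to 3. Several uncalled changes turned sign: for quantile normalisation, log2(CPM + 1) and log2(CPM + 5) in turn, UBTF at 24 h was 0.0171, 0.0223 and 0.022; NOP14 at 24 h was 0.0408, 0.0252 and 0.0246; the NPM1 difference was 0.0611, 0.0366 and 0.0365; and TSR1 at 24 h ran from -0.00253 (without DMSO replicate 2 at 24 h) to 0.0475 without each library in turn, each on the scale of its fit.

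With the replicate number as a block, and the unnumbered library at a level of its own, 19 members had a lower effect at 24 h, and in DMSO 0 were higher and 0 lower. In that fit DMSO at 8 h rests on replicate 1 alone. With the unnumbered library taken as replicate 2, an alternative chosen after seeing the data, the median member change at 8 h was 0.144. In DMSO 2 were then higher and 0 lower, and 82 of the 89 called changes of single members were kept. Fewer of the 89 were kept with the unnumbered library at a level of its own. Among those lost there were the rise of POLR1B and the differences between the times of NOB1, NOLC1 and POLR1A. Correlations between libraries were taken on the deviations of each library from its group mean across the tested entries. On these, same-numbered libraries had correlations of -0.0434 to 0.134 over 12 pairs and others -0.10 to 0.0702 over 33. The deviations of the 2 DMSO libraries at 8 h mirror each other by construction, so their pairs are not independent. Outside DMSO at 8 h every same-numbered pair was above 0 (0.03 to 0.134). Whether same-numbered libraries share more than a number was not tested.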
